A study of Homo sapiens with 6 samples.

Results

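TAR1, SUBTEL_sa and REP522 are repeat families of human chromosomes whose annotated copies, here called loci, were taken as every row of the deposited satellite table that carries one of these 3 family names. They make up 439 of the 9566 satellite loci in the table: 161 of TAR1, 34 of SUBTEL_sa and 244 of REP522. The study followed satellite RNA and DNA in SW620, a human colon cancer cell line, by Helicos sequencing of single molecules, which reads each nucleic acid strand without PCR amplification. Cells were sampled in 2D culture in RPMI1640 medium with 10% FBS (culture before), as a subcutaneous tumour in a Nu/Nu mouse, an immunodeficient strain without a thymus (xenograft), and in the same 2D culture conditions after the xenograft (culture after). Total RNA was sequenced by a digital gene expression protocol and genomic DNA by a DNA protocol at each of the 3 stages. This gave 6 libraries with 1 library per group, so no comparison has a replicate check, and every interval below covers counting error only. The xenograft samples come from a tumour in a mouse host, and the labels give no number of tumours or mice.

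TAR1 is the telomere-associated repeat, which lies just inside the telomeric TTAGGG tract of many human chromosome arms and is part of the region from which the telomeric transcript TERRA starts. Human subtelomeres have exchanged segments with each other and with pericentromeric regions during primate evolution, so copies of these repeats also lie far from present chromosome ends. A head-to-head pair of telomere-type sequences in the long arm of chromosome 2 marks the fusion of a pair of ancestral ape chromosomes. SUBTEL_sa is a short satellite named for its place near telomeres, and REP522 is classed with the satellites in the RepeatMasker annotation.

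By their positions in the hg19 build, most of these loci lay inside chromosomes. Of the 161 TAR1 loci, 40 lay within 500 kb of a chromosome end, 115 lay further inside and 6 were on unplaced or unlocalised contigs. TAR1 copies within 20 kb of an end had a fixed orientation: all 7 at short-arm ends were on the minus strand and all 12 at long-arm ends on the plus strand, so their 3′ side faced the telomere in every case. The 115 interior TAR1 loci had no such bias, with 53 on the plus and 62 on the minus strand. On chromosome 2, the loci at chr2:114359554-114360257 on the plus strand and chr2:114361055-114362417 on the minus strand faced each other with their 3′ sides. Of the 244 REP522 loci only 3 lay within 500 kb of an end, all on the long arm of chromosome 5, and 235 were interior. Of the 34 SUBTEL_sa loci 4 lay within 500 kb of an end and 28 were interior. The name subtelomeric therefore describes a minority of the loci of each family in this build.

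The 3 families also occurred as a compound unit. At 17 TAR1 loci a REP522 row began within 10 bases, at a gap of 0 to 6 bases, always on the 3′ side of TAR1 and on the same strand. At 12 of these 17 a SUBTEL_sa row on the same strand lay 88 to 476 bases from the 5′ side of TAR1. Of the 17 loci, 16 were interior, 1 was on a contig and none was near a chromosome end, and they were spread over 8 chromosomes or contigs. REP522 thus took the side on which the telomere lies at chromosome ends. These 17 TAR1 loci, called abutting here, were set apart after the values had been seen, and they held 9.01% of the bases annotated as TAR1.

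Values are the deposited RPM, a library's reads scaled to a total of 1000000, in which 1 read adds 6.36, 0.928 and 4.17 RPM in the RNA libraries of culture before, xenograft and culture after, and 0.230, 0.309 and 0.325 RPM in the DNA libraries. Whole reads recovered from these steps are called hits. Library totals were 157326, 1077925 and 240046 reads for RNA and 4355426, 3231173 and 3080853 reads for DNA, so the RNA of both cultures was read least deeply and a locus without a hit there could hold up to 19.1 or 12.5 RPM (3 hits). One library stood apart: satellites of all families took 0.854% of the reads in culture-before DNA but 9.88% and 10.4% in xenograft and culture-after DNA. In RNA the shares were 0.504%, 7.29% and 1.30%. Most of that difference lay outside the 3 families: xenograft over culture-before DNA was 12.6 (95% interval 12.4 to 12.7) for the other 21 families together. Scaling the satellite table to itself, by TMM factors, shifts every DNA log2 ratio against culture before by −3.04 for the xenograft and −2.97 for culture after, and it shifts the RNA log2 ratios by −0.17 for xenograft over culture before and −0.67 for culture after over xenograft. Ratios below are on the deposited scale, per all reads of a library, and each DNA ratio against culture before that is given below for a member family or class and lies above 1 falls below 1 with TMM scaling.

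TAR1 DNA was highest in culture before, TAR1 RNA did not differ between stages beyond counting error on the deposited scale, and REP522 RNA was highest in culture after. TAR1 RNA stood at 235, 209 and 187 RPM in culture before, xenograft and culture after (37, 225 and 45 hits). These 3 levels lay within counting error of each other, with xenograft over culture before at 0.888 (0.625 to 1.29) and culture after over xenograft at 0.898 (0.637 to 1.24). With TMM scaling culture-after RNA was lower, at 0.563 of the xenograft (0.399 to 0.778) and 0.443 of culture before (0.280 to 0.704). TAR1 DNA stood at 643, 113 and 104 RPM (2802, 365 and 319 hits), highest in culture before and 0.176 times that level in the xenograft (0.157 to 0.196). Xenograft and culture-after DNA did not differ beyond counting error, at a ratio of 0.917 (0.786 to 1.07).

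REP522 RNA stood at 209.8, 294 and 483 RPM (33, 317 and 116 hits), lowest in culture before and highest in culture after. The step from xenograft to culture after was 1.64-fold (1.32 to 2.04), while the step from culture before to xenograft, at 1.40 (0.978 to 2.07), was within counting error. With TMM scaling the later step shrank to 1.03, within counting error of no difference. REP522 DNA stood at 64.7, 194 and 152 RPM (282, 627 and 469 hits), and xenograft over culture before was 2.997 (2.60 to 3.46) on the deposited scale and 0.366 with TMM scaling. Culture-after DNA was 0.785 times the xenograft level (0.695 to 0.886).

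SUBTEL_sa had few hits in any library. It had 3, 1 and 1 RNA hits and 16, 3 and 5 DNA hits in culture before, xenograft and culture after, and 21 of its 34 loci had no hit in any library. The DNA level was 0.253 times that of culture before in the xenograft, with a wide interval of 0.0472 to 0.883. Its loci had a median length of 45 bases, which leaves little sequence to match. The 5 hits of culture-before DNA at chr19:6199553-6199707 were the most any SUBTEL_sa locus had in 1 library, and both later DNA libraries had none there. Only 1 SUBTEL_sa locus reached 5 hits over all libraries, so nothing more was read from this family.

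**Figure D1:**
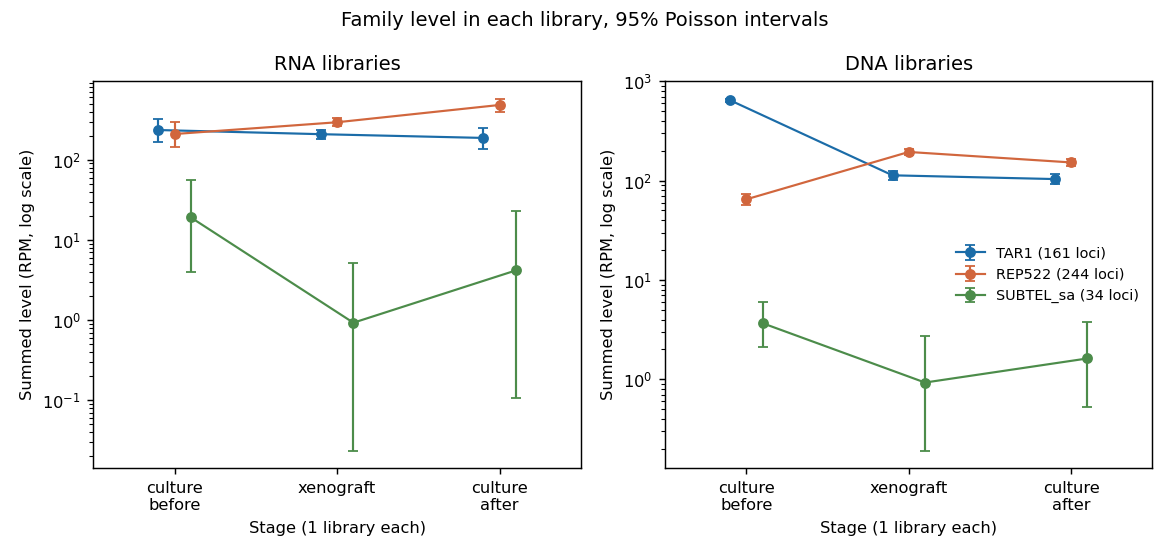
Summed level in RPM of each family on a log scale, in the RNA libraries (left) and the DNA libraries (right) by stage; points are single libraries, bars are 95% Poisson intervals and lines join the stages of a family. TAR1 DNA drops from 643 to 113 RPM while TAR1 RNA stays between 187 and 235 RPM, and SUBTEL_sa lies near the level of a few reads throughout.

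Set against the other 21 families, the xenograft RNA of TAR1 and REP522 was low. The RNA ratio of xenograft over culture before was 15.8 for the other families (14.7 to 17.05), and that of culture after over xenograft was 0.171 (0.164 to 0.177). Divided by the first of these, the RNA ratio was 0.0561 for TAR1 (0.0392 to 0.0824) and 0.0886 for REP522. LSAU, another satellite family, had an RNA ratio of 2.43 (0.786 to 12.2) and a DNA ratio of 3.65 (2.76 to 4.86) between the same stages. These intervals overlap those of REP522, and the RNA interval also overlaps that of TAR1 (0.625 to 1.29). An RNA ratio below that of the other 21 families pooled was thus not particular to TAR1 and REP522. Per kilobase annotated, the 3 stages of TAR1 RNA lay at 2.64, 2.34 and 2.10 RPM per kb, against 0.348, 5.50 and 0.938 RPM per kb for the other 21 families. As a sum, TAR1 RNA was therefore above the other families per base in both cultures and below them in the xenograft. The level in the cultures rested largely on 4 chromosome 9 loci, described below. They gave 64.9% and 60.0% of TAR1 RNA hits in culture before and culture after with 2.44% of TAR1 bases. Without them TAR1 RNA stood at 82.6, 109 and 75.0 RPM over 87020 of 89198 bases.

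The fall of TAR1 DNA was carried by a few interior loci that abut REP522. In culture-before DNA, 9 TAR1 loci had more than 20 hits, and 8 of these 9 abutted a REP522 row. They held 2624 of the 2802 TAR1 hits of that library, or 93.6%. All 9 were lower in the xenograft, but they had been picked by their level in culture before, so their shared direction is a description. The 4 highest lie on chromosome 9, on either side of its centromere, and are between 490 and 581 bases long.

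The locus chr9:42805767-42806343 on the minus strand had 862 hits in culture-before DNA and 9 each in xenograft and culture-after DNA, or 198, 2.79 and 2.92 RPM. The locus chr9:67340081-67340661 on the plus strand had 668, 9 and 4 hits. The locus chr9:69724087-69724616 on the plus strand had 586, 8 and 4 hits, and chr9:66957765-66958254 on the minus strand had 349, 7 and 3. At each of them culture before was high and the later stages were at a few hits. On log2(RPM + 5), their differences between xenograft and culture before were −4.70, −4.35, −4.22 and −3.57. Together they gave 566, 10.2 and 6.49 RPM, or 88.0%, 9.04% and 6.27% of TAR1 DNA hits, although they hold 2.44% of TAR1 bases. Without these 4 loci, TAR1 DNA stood at 77.4, 103 and 97.1 RPM and its ratio of xenograft over culture before turned from 0.176 to 1.33 (1.14 to 1.55).

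The same 4 loci also gave much of the TAR1 RNA, but without the drop. Their RNA hits in culture before, xenograft and culture after were 11, 42 and 13 at chr9:42805767-42806343. They were 4, 29 and 4 at chr9:67340081-67340661, 5, 24 and 6 at chr9:69724087-69724616 and 4, 13 and 4 at chr9:66957765-66958254. In sum they stood at 153, 100.2 and 112 RPM, or 64.9%, 48.0% and 60.0% of TAR1 RNA hits. The RNA level over the DNA level at these loci was 0.270 in culture before (0.172 to 0.402), 9.81 in the xenograft (6.59 to 15.0) and 17.3 in culture after (9.36 to 32.6). For the other 157 TAR1 loci the same ratio was 1.07, 1.06 and 0.773, and each of these intervals spans 1. RNA and DNA of the 4 loci thus parted, while for the rest of the family no difference in RPM beyond counting error was seen. The other 157 loci had only 13 and 18 RNA hits in culture before and culture after. RNA and DNA libraries were made by different protocols, so a ratio near 1 does not mean equal amounts.

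These 4 loci were the only TAR1 loci to reach 20 RPM in either library of a DNA pair or in culture-before RNA. All 4 fell past 2-fold on log2(RPM + 5) between culture-before and xenograft DNA, where 2.03% of the 444 satellite loci tested fell and 89.6% rose. They also fell between culture-before and culture-after DNA, where the share of all loci that fell was 1.74%. Their median log2 difference was −4.28 in the xenograft comparison, against 2.76 over all loci tested. In RNA none of the 4 passed 2-fold in either direction between culture before and xenograft, where 89.1% of 377 loci rose, and their median was −0.60 against 2.98 for all loci tested. They had entered these tests through culture before, where their DNA was highest.

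**Figure D2:**
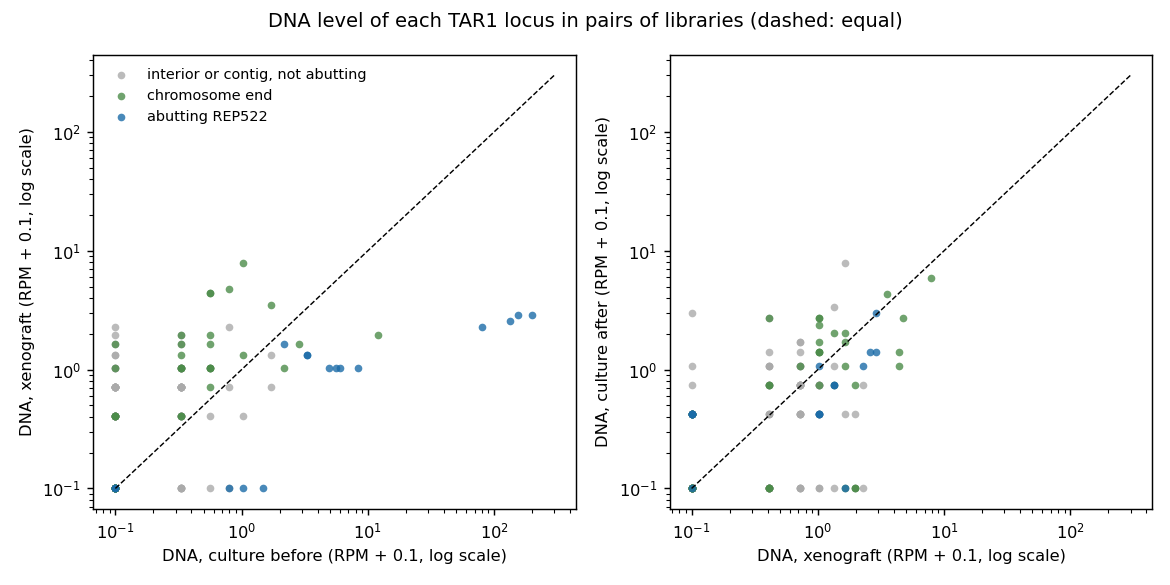
DNA level of each of the 161 TAR1 loci, in RPM + 0.1 on log scales, for xenograft against culture before (left) and culture after against xenograft (right); each point is a locus, coloured by class, and the dashed line marks equal levels. The 12 abutting loci with at least 5 hits over both libraries lie below the line on the left, with the 4 chromosome 9 loci between 80.1 and 198 RPM in culture before, and they join the other loci on the right.

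The pattern was not limited to chromosome 9. Among TAR1 loci with at least 5 DNA hits over the xenograft and culture-before libraries, 12 of 12 abutting loci were lower in the xenograft, against 4.41% of all satellite loci so tested. Of the 30 non-abutting TAR1 loci with as many hits, 23 were higher and 7 lower in the xenograft. The abutting class had been set apart after the values were seen. Among abutting loci outside chromosome 9, only chr22:22652106-22652554, with 9 and 5 DNA hits in culture before and xenograft, reached 5 in the xenograft. The others passed the limit through culture before, where they were high, so the count of 12 is a description and no test. The loci chr2:90283901-90284571 and chr2:90527505-90528175, both among the 12, had identical hits in all 6 libraries, with 14, 4 and 2 in DNA. They may thus count the same reads, and sharing of reads among the other abutting TAR1 loci was not tested. On chromosome 15, chr15:20353014-20353665 had 36, 3 and 1 DNA hits and chr15:21359629-21360263 had 26, 3 and 1 hits. On chromosome 2, chr2:91750391-91751008 had 24, 3 and 3 and chr2:87575814-87576578 had 21, 3 and 1. All of these were highest in culture before.

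As a class the 17 abutting loci stood at 602, 17.9 and 11.4 RPM in DNA (2622, 58 and 35 hits). The ratio of xenograft over culture before was 0.0298 (0.0226 to 0.0387), and it was 0.215 (0.135 to 0.329) over the 13 abutting loci left without the 4 on chromosome 9. The other 144 TAR1 loci went from 41.3 to 95.01 and 92.2 RPM (180, 307 and 284 hits), a ratio of xenograft over culture before of 2.30 (1.91 to 2.78) whose direction turns with TMM scaling. Divided by the ratio of the non-abutting loci, which share the scaling, that of the abutting loci was 0.0130 (0.00928 to 0.0180). The annotation alone gives this division, but since it was noticed in these libraries, the ratio describes them and is no independent test.

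The sharpest contrast lay inside the compound unit itself. The 17 REP522 rows that touch these TAR1 loci had 26, 12 and 35 DNA hits in total, against 2622, 58 and 35 for the TAR1 rows beside them. At chr9:42805767-42806343, with 862 culture-before DNA hits, the REP522 row that begins 2 bases away at chr9:42805276-42805764 had 1 hit in that library and 1 and 2 in the later ones. The REP522 row of the unit beside chr9:67340081-67340661 had 0, 0 and 3 hits. The high culture-before DNA values thus stood on one side of a family boundary. A reversed case occurred on chromosome 21, where the TAR1 row chr21:9540844-9540912 is 69 bases long and had 0, 0 and 1 DNA hits, while the REP522 row chr21:9540915-9541396 beside it had 11, 0 and 0. Many of the abutting REP522 rows carry the same hits in each library, for example 2 in xenograft RNA at 12 rows, so their sums may count the same reads several times.

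RNA from the abutting TAR1 loci stood at 197, 111 and 125 RPM (31, 120 and 30 hits), 0.565 times the culture-before level in the xenograft (0.378 to 0.868). RNA from the other 144 loci stood at 38.1, 97.4 and 62.5 RPM (6, 105 and 15 hits), with xenograft over culture before at 2.55 (1.13 to 7.12). The abutting class held 83.8%, 53.3% and 66.7% of TAR1 RNA hits. On the deposited scale, the near-equal RNA levels of the family in culture before and xenograft were thus the sum of a lower and a higher class. The classes were set apart after the values were seen, and the higher class rests on 6 culture-before hits. Size factors shift every RNA log2 ratio of xenograft over culture before by −0.51. From xenograft to culture after the other 144 loci stood at a ratio of 0.641 (0.347 to 1.11), within counting error.

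**Figure D3:**
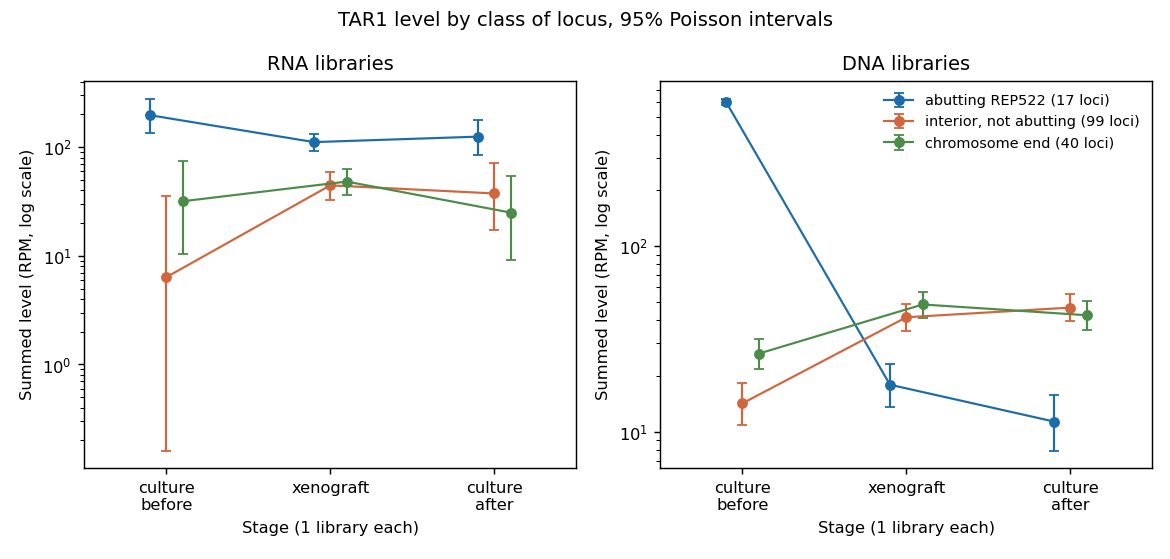
Summed RPM on a log scale of 3 classes of TAR1 loci, without 5 contig loci that abut no REP522 row, in the RNA libraries (left) and DNA libraries (right) by stage; points are single libraries and bars 95% Poisson intervals. The 17 abutting loci fall from 602 to 17.9 RPM in DNA, while the 99 other interior loci rise from 14.2 to 41.5 RPM and the 40 end loci from 26.4 to 48.6 RPM.

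TAR1 at chromosome ends, where TERRA arises, shared the direction of the other non-abutting copies in DNA but by a smaller ratio. The 40 end loci had 31.8, 48.2 and 25.0 RPM in RNA (5, 52 and 6 hits), and none of the 3 RNA comparisons left counting error: xenograft over culture before was 1.52 (0.610 to 4.87) and culture after over xenograft 0.518 (0.182 to 1.21). Their DNA stood at 26.4, 48.6 and 42.5 RPM (115, 157 and 131 hits), with xenograft over culture before at 1.84 (1.44 to 2.36) on the deposited scale and 0.224 with TMM scaling. Interior TAR1 as a whole went the other way in DNA, from 615 to 59.4 and 57.8 RPM, but the 99 interior loci that do not abut REP522 went from 14.2 to 41.5 and 46.7 RPM (62, 134 and 144 hits). Divided by the ratio of these 99 loci, that of the end loci was 0.632 (0.421 to 0.945) for xenograft over culture before and 0.491 (0.326 to 0.737) for culture after over culture before. Without 1 end locus on chromosome 18, described next, these values were 1.11 (0.712 to 1.73) and 0.896 (0.574 to 1.40). End loci carried 4.10%, 43.0% and 41.1% of TAR1 DNA hits with 44.2% of TAR1 bases. In both later libraries their share of DNA hits was therefore close to their share of bases.

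Of 18 end loci with at least 5 DNA hits over culture before and xenograft, 15 were higher in the xenograft, no larger a share than the 95.6% of all satellite loci. The end of the long arm of chromosome 21, chr21:48117715-48119753, had 4, 25 and 18 DNA hits and 2, 2 and 0 RNA hits. The end loci of the long arms of chromosome 1 (chr1:249238111-249239760) and chromosome 10 (chr10:135522755-135524387) had 3, 15 and 8 and 2, 14 and 4 DNA hits. The largest exception was the short-arm end of chromosome 18, chr18:10632-11145, with 52, 6 and 0 DNA hits and no RNA hit in any library. It abuts no REP522 row and was the ninth TAR1 locus above 20 hits in culture-before DNA.

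That single locus decided a difference between arms. The 21 short-arm loci had 72, 58 and 56 DNA hits, with xenograft over culture before at 1.09 (0.755 to 1.56), and the 19 long-arm loci had 43, 99 and 75, at 3.10 (2.15 to 4.55). Without the chromosome 18 locus the short-arm ratio was 3.50 (2.06 to 6.20), and the arms differed by a factor of 1.13 (0.580 to 2.25), within counting error. The ratio over all end loci was then 3.23 (2.39 to 4.41).

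RNA at chromosome ends was spread thinly. The short-arm end of chromosome 2, chr2:10586-12198, had 0, 9 and 0 RNA hits and 7, 11 and 13 DNA hits, the most RNA hits of any end locus in the xenograft library. The short-arm end of chromosome 1, chr1:10469-11447, had 0, 6 and 2 RNA hits and 2, 2 and 3 DNA hits. Both fusion-site copies on chromosome 2 were at a few hits: chr2:114359554-114360257 had 0, 1 and 0 in RNA and 1, 2 and 2 in DNA, and chr2:114361055-114362417 had 0, 2 and 0 and 3, 7 and 2. An RNA difference at any single end locus was not detectable at this depth. A short interior locus on chromosome 12, chr12:27842284-27842422, 139 bases long, had as many RNA hits as the best end locus, with 0, 9 and 3, and 7, 4 and 10 DNA hits.

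REP522 RNA came largely from 4 loci, as TAR1 RNA did. The locus chr22:22477210-22479804 on the plus strand had 21, 89 and 56 RNA hits, or 133, 82.6 and 233 RPM, and only 1, 4 and 3 DNA hits. On chromosome 9, chr9:43159272-43160588 had 2, 49 and 33 RNA hits, or 12.7, 45.5 and 137 RPM, with 42, 27 and 32 DNA hits. The chromosome 9 loci chr9:97316201-97318181 and chr9:44143626-44145593 had 1, 24 and 10 and 0, 12 and 7 RNA hits. In RPM the chromosome 22 locus was lowest in the xenograft, at 0.619 of culture before (0.381 to 1.05), within counting error. All 4 loci had their highest RPM in culture after. At 2 of them the step from the xenograft was within counting error. It was 1.87 (0.799 to 4.06) at chr9:97316201-97318181 and 2.62 (0.874 to 7.22) at chr9:44143626-44145593. Against culture before, culture after was also within counting error at both. At the chromosome 9 loci the 0 to 2 culture-before hits leave their order against the xenograft within counting error.

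The 4 loci held 72.7%, 54.9% and 91.4% of REP522 RNA hits with 4.52% of REP522 bases. As a sum they stood at 153, 161 and 442 RPM, and the remaining 240 loci at 57.2, 133 and 41.7 RPM (9, 143 and 10 hits). The 4 loci, ranked by their RNA hits after these were seen, were 2.74 times as high in culture after as in the xenograft. Without them REP522 RNA was 0.314 times the xenograft level in culture after (0.147 to 0.595), the direction of the other 21 families, and its ratio of xenograft over culture before was 2.32 (1.19 to 5.18). The higher family level in culture after thus rested on these 4 of 244 loci.

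At 20 RPM in either library, 4 REP522 loci were tested between xenograft and culture-after RNA, and 3 of them rose past 2-fold, where 18.2% of 429 loci rose and 69.2% fell. These were chr9:43159272-43160588, with a log2 difference of 1.498, the chromosome 22 locus with 1.44 and chr9:44143626-44145593 with 1.08. The last of these reached 20 RPM only in culture after, where it was higher, so its direction was set by the limit, while the other 3 loci reached it in the xenograft. Between the 2 cultures 3 of 4 loci were past 2-fold higher and none lower, where the shares of 145 loci were 71.7% and 7.59%. Between culture before and xenograft 2 of 3 were past 2-fold higher, where the share was 89.1%. In both of these comparisons the higher loci reached 20 RPM only in the later library, so nothing is read from the counts.

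In DNA the same 3 chromosome 9 loci had the most culture-before hits of the family. They were the only REP522 loci with more than 20 hits in culture-before DNA, with 42, 27 and 32 hits at chr9:43159272-43160588, 69, 22 and 13 at chr9:97316201-97318181 and 25, 15 and 9 at chr9:44143626-44145593. Their sum went from 31.2 to 19.8 and 17.5 RPM. They were picked by their culture-before level, and at chr9:43159272-43160588 and chr9:44143626-44145593 the ratio of xenograft over culture before was within counting error, at 0.867 (0.514 to 1.44) and 0.809 (0.396 to 1.60). At chr9:97316201-97318181 it was 0.430 (0.253 to 0.703). Of the 60 REP522 loci with at least 5 hits over culture-before and xenograft DNA, 56 were higher and 4 lower in the xenograft, close to the 95.6% of all satellite loci that were higher. Chromosome 9 as a whole had a DNA ratio of 1.59 (1.28 to 1.97) against 4.95 (3.996 to 6.19) on chromosomes other than 9 and 22. Without the 3 loci chromosome 9 stood at 6.21 (4.10 to 9.71), so this difference rested on loci picked for high culture-before DNA. The RNA ratio of culture after over xenograft also turned on these 3 loci. It was 2.03 on chromosome 9 with them and 0.160 without, against 0.297 on chromosomes other than 9 and 22. The 3 loci held 50 of the 51 culture-after RNA hits of chromosome 9. Divided by 0.297, the ratio without them was 0.543, with a wide interval of 0.0116 to 4.52. REP522 RNA on chromosome 22 went from 90.9 RPM in the xenograft to 242 in culture after.

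**Figure D4:**
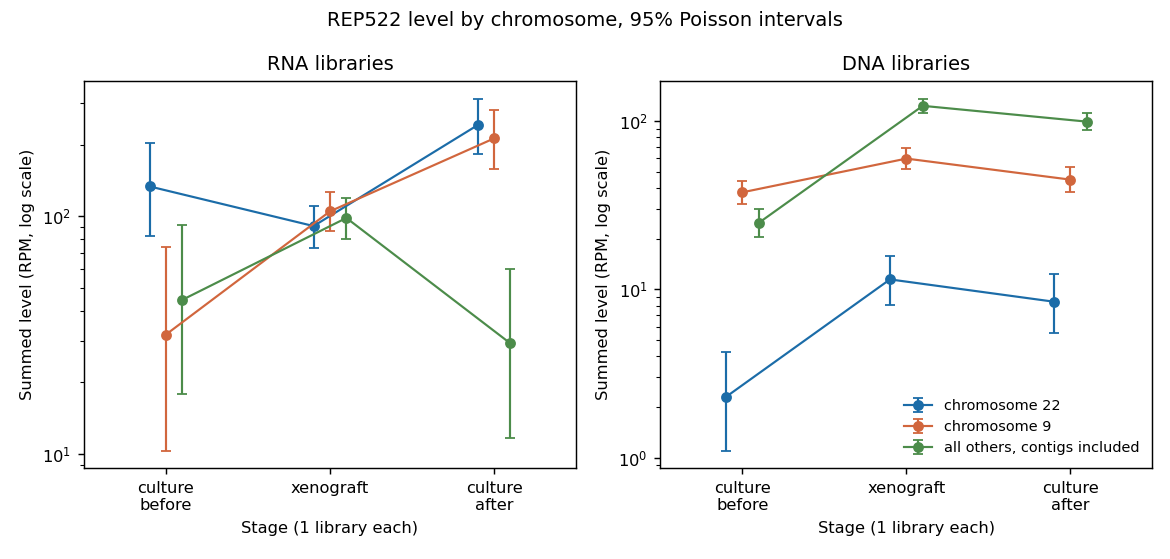
Summed REP522 level in RPM on a log scale for chromosome 22, chromosome 9 and all other chromosomes and contigs, in RNA (left) and DNA (right) by stage; points are single libraries and bars 95% Poisson intervals. RNA of chromosomes 9 and 22 is highest in culture after, at 212 and 242 RPM, while RNA elsewhere falls back from 98.3 to 29.2 RPM.

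The loci with much RNA in both families tended to have much culture-before DNA, with the chromosome 22 locus as the exception. All 4 TAR1 and 3 of the 4 REP522 loci with most RNA hits were among the 12 member loci above 20 hits in culture-before DNA. At the chromosome 22 locus DNA stayed at 1, 4 and 3 hits, and the RNA level of chromosome 22 REP522 was 58.1, 7.94 and 28.6 times its DNA level. REP522 outside chromosome 22 had RNA over DNA ratios of 1.22, 1.11 and 1.68, and without the 4 loci of most RNA 1.72, 0.767 and 0.311. Against this, RNA over DNA of the other 21 families was 0.585, 0.735 and 0.119.

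Some of these rows cannot be told apart by the reads they count. Of the loci with at least 5 hits over all libraries, 25 of 81 TAR1 loci and 44 of 114 REP522 loci shared their exact hit profile over the 6 libraries with another locus of their family. The ends of the X and Y long arms, chrX:155258262-155259566 and chrY:59361268-59362572, which belong to the shared pseudoautosomal region, were such a pair. Counting each such profile once left every family ratio within its counting interval. None of the 4 chromosome 9 TAR1 loci or the 4 REP522 loci with most RNA shared its exact profile with another row. An exact match cannot find loci that share only part of their reads, so whether these loci hold separate reads was not tested. Other satellite families were close by at 24.8% of TAR1, 47.1% of SUBTEL_sa and 26.6% of REP522 loci, within 10 kb, against 28.0% of the loci of the other 21 families.

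By the count test, 9 TAR1 loci were lower and 8 higher in xenograft than in culture-before DNA among the 42 with at least 5 hits, against 1.18% and 82% of 3648 satellite loci. Of 60 REP522 loci tested, 31 were higher and 2 lower. Between culture-before and culture-after DNA, 10 TAR1 loci were higher and 12 lower of 43, and 13 REP522 loci were higher and 2 lower of 38, against 83.8% and 1.22% of 3431 loci. Between xenograft and culture-after DNA, which leaves out the library that stands apart, 1 of 54 TAR1 and none of 81 REP522 loci passed, against 0.968% higher and 0.473% lower of 4443 loci. In RNA, 2 of 5 REP522 loci were higher in culture after than in the xenograft and none lower, against 4.73% and 18.3% of 1417 loci. Between the cultures 1 of 4 REP522 loci was higher, against 32.1% of 168 loci, where 2.98% were lower. Between culture before and xenograft none of 10 TAR1 and 7 REP522 loci passed, against 13.4% of 1394 loci. This test compares the reads of 2 libraries and not the conditions.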

How the data were processed

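The authors deposited 1 table of satellite loci by 6 libraries in RPM, that is reads scaled to 1000000 per library, made from Helicos single-molecule reads of SW620 RNA and DNA. The submitters' processing notes name hg19. The aligner, its treatment of reads with several matches and the strand of counting are not given by the sources used here. Every value was a whole multiple of 1 read within 0.01 (100% in each library), so reads (hits) were recovered. Members were chosen by family name, and the members and lists were chosen with earlier results of these data known. Named loci were the 6 with most RNA and the 6 with most DNA hits per family, the 5 highest and 5 lowest of log2(RPM + 5) per comparison at 20 RPM or more, TAR1 loci inside chromosome 2 and SUBTEL_sa loci with a hit; other loci named were chosen after their values were seen. Chromosome lengths came from GenomeInfoDb 1.38.1. Ratios have 95% exact conditional binomial intervals, ratios of ratios conditional odds-ratio intervals, levels exact Poisson intervals and shares Clopper-Pearson intervals (SciPy 1.17.1). A locus passed at a 2-fold difference on log2(RPM + 5); the pseudocount understates changes of low loci. Alternatives used TMM (edgeR 4.0.16), size factors (DESeq2 1.42.0), other limits, and an exact conditional binomial count test with Benjamini-Hochberg adjustment at 0.05 over all loci with 5 or more hits. Code was tested on simulated data. Gene annotation of hg19 and locus sequences were not used here.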

Additional observations from a re-analysis of the deposited data

How the results depend on the processing

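Each comparison has 1 library per stage, so no replicate could be left out. No paired analysis was possible because no group has a replicate. Over all alternatives, 226 of 319 recomputed values stayed within the counting interval of the reported ratio, or within 1.5 times the reported count. Another 79 moved beyond it and 14 changed direction. A change of direction was counted only where the interval of the reported ratio excluded 1. Ratios within counting error of 1 that crossed 1 are among the values that stayed or moved. Counting identical profiles once, taking ends at 100 kb or 2 Mb and totals without satellite hits moved none. RNA depth limits every single-locus RNA value, since 1 hit is 6.36 RPM in culture before. The cause of the changes below was not tested, beyond the loci or scale each alternative removes or sets. Ratios below give xenograft over culture before first and culture after over culture before second, unless stated.

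With TMM scaling the DNA ratios were 0.0214 and 0.0205 for TAR1, 0.0308 and 0.0563 for SUBTEL_sa, 0.366 and 0.30 for REP522 (both reversed), 0.224 and 0.205 for TAR1 ends (both reversed), 0.0118 and 0.0120 for interior TAR1 and 0.00364 and 0.00240 for abutting TAR1. With size factors they were 0.0197 and 0.0189, 0.0284 and 0.0520, 0.337 and 0.277 (reversed), 0.207 and 0.189 (reversed), 0.0108 and 0.0110, and 0.00335 and 0.00222 in the same order. In RNA, culture after over xenograft with TMM was 0.563 for TAR1, 0.657 for its interior loci, 0.703 for abutting loci and 1.03 for REP522, and culture after over culture before was 0.443, 0.458, 0.352 and 1.28. With size factors the TAR1 RNA ratios were 0.623 and 0.419, culture after over culture before was 0.434 for interior, 0.334 for abutting TAR1 and 1.21 for REP522, and REP522 culture after over xenograft was 1.23.

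Without chromosome 9, TAR1 DNA reversed to 1.202 and 1.18, REP522 DNA stood at 4.96 and 3.97 and REP522 RNA between the cultures at 1.52. Without the locus of most hits TAR1 DNA was 0.247 and 0.226. Over loci of 500 bases or more the DNA ratios were 0.152 and 0.143 for TAR1 and 2.32 and 1.69 for REP522. Alternatives chosen after seeing the data follow. TAR1 without the abutting loci had DNA ratios of 2.30 and 2.23 (reversed) and RNA ratios of 2.55 and 1.64. Abutting TAR1 without the 4 chromosome 9 loci had 0.215 and 0.135 in DNA and 0.25 and 0.281 in RNA. TAR1 ends without the chromosome 18 locus had 3.23 and 2.94 in DNA. REP522 RNA without chromosome 22 was 2.66 for xenograft over culture before and 1.19 for culture after over xenograft. Without its 4 loci of most RNA it was 2.32, 0.314 (reversed) and, between the cultures, 0.728 (reversed), and REP522 DNA was 5.20 and 4.02.

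As reported, member loci past 2-fold were 2 higher and 0 lower for xenograft over culture-before RNA. They were 3 and 0 for each other RNA comparison. In DNA they were 0 and 4 for each comparison with culture before, and 0 and 0 for culture after over xenograft. Over all satellite loci tested, 89.1% were higher and 1.06% lower for xenograft over culture-before RNA. The shares were 18.2% and 69.2% for culture after over xenograft RNA and 71.7% and 7.59% between the RNA cultures. In DNA they were 89.6% and 2.03% for xenograft over culture before and 92.2% and 1.74% for culture after over culture before. None of 473 loci passed between the later DNA libraries. Xenograft over culture-before RNA gave 7 higher and 1 lower with 5 hits and no RPM minimum, 1 higher and 3 lower with size factors, 1 lower with TMM or a pseudocount of 1, 3 lower at 10 RPM and 0 higher by the count test. Culture after over xenograft RNA gave 2 lower with 5 hits, and 0 higher and 1 lower with TMM. Between the RNA cultures, 3 were lower at 10 RPM, 4 with TMM or size factors, and 1 was higher by the count test. Xenograft over culture-before DNA gave 1 higher with 5 hits, 11 lower with TMM, 12 with size factors, and 39 higher and 11 lower by the count test. Culture after over culture-before DNA gave 1 higher and 8 lower with 5 hits, 11 lower with TMM and 12 with size factors. By the count test it gave 23 higher and 14 lower, and 1 was higher between the later DNA libraries. Over all satellite loci the count test gave 82% higher and 1.18% lower for xenograft over culture-before DNA. It gave 83.8% and 1.22% for culture after over culture before, and 0.968% higher between the later libraries. In RNA it gave 13.4% higher for xenograft over culture before and 32.1% between the cultures. For the other settings no share over all loci was computed, so nothing is read from those counts.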

Other observations

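A small set of TAR1 loci had its DNA mainly in culture after. The interior locus chr6:169015039-169016452 had 0, 5 and 24 DNA hits in culture before, xenograft and culture after, and its neighbour chr6:169014277-169015023 had 1, 1 and 8. On chromosome 21, chr21:47425788-47426344 had 0, 0 and 9 DNA hits, and the short-arm end of chromosome 9, chr9:10436-11165, had 0, 1 and 8. These 4 loci were picked after their values were seen, so their shared direction follows from the choice and is only a description. By the count test, 1 of 54 TAR1 loci was higher in culture-after than in xenograft DNA. The share over all satellite loci was 0.968% of 4443.

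As a sum, long REP522 copies were more prominent in RNA than in DNA, largely through 3 loci. The 42 loci of at least 1500 bases held 51.4% of REP522 bases, 78.8%, 64.0% and 69.0% of the RNA hits and 58.2%, 45.5% and 38.8% of the DNA hits of the 3 stages. They include 3 of the 4 loci with most RNA. Of the 26, 203 and 80 RNA hits of the long loci, chr22:22477210-22479804 alone had 21, 89 and 56. The loci chr9:97316201-97318181 and chr9:44143626-44145593 had 1, 24 and 10 and 0, 12 and 7. Shares without these 3 loci were not computed, so no trend with length is read from the sums.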
